A study of Mus musculus with 24 samples.

Results

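Normal lung parenchyma was compared with the normal mammary gland (NMG) of the same animals, across the mouse microRNAs (miRNAs) of an nCounter panel. Members were the samples titled as normal lung parenchyma (n = 2) or as normal mammary gland (n = 2), 4 of the 24 samples of the series. The sample descriptions carry the numbers 15 and 16, once in each tissue, and these were read as mouse numbers, so that mouse 15 gave replicate 1 and mouse 16 gave replicate 2 of both tissues. Both tissues came from BalbC nude mice, a strain that lacks a thymus and therefore most T cells. Mice were female and from 6 to 9 weeks of age by the general animal methods, while the age at capture and whether these 2 had carried a tumor are not given in the sources used here. Cells of both tissues were cut out by laser capture microdissection, total RNA was purified, and no treatment is named for these 4 samples. The other 20 samples of the series (tumor areas, lung metastases and cultured JygMC(A) mammary carcinoma cells) entered the scaling between lanes, the filter on probes and the estimate of the spread, but no group mean of the comparison. Each value is a mixture of all cells in the captured area, so fewer cells of a type and less RNA per cell cannot be told apart.

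A mature miRNA is a short RNA that guides Argonaute proteins to messenger RNAs, mainly through its seed, bases 2 to 8 from the 5′ end. miRNAs with a common seed form a family and share most predicted targets. Many are made mainly in 1 kind of cell, such as miR-126 in endothelium, miR-451 and miR-144 in red blood cell precursors, miR-449 and miR-34b/c in multiciliated airway cells and miR-205 in basal and squamous epithelium. Others follow the position of the cell along the body, since their genes lie inside the Hox clusters.

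The mature sequences below belong to some of the miRNAs compared, called and uncalled, with the seed in capitals. They are RefSeq sequences with GRCm38.p6 coordinates, and the build of the assay's own probe design is not given in the sources used here. Where the panel uses an older name without an arm, the arm usually called the guide strand was taken. The first set shows the seed that the airway miRNAs of the miR-34 and miR-449 families share.
miR-34b-5p: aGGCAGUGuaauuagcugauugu (chr9:51103610-51103632, minus strand)
miR-449a: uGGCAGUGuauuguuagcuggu (chr13:113037549-113037570, plus strand, within Cdc20b)

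The next set holds the cardiac pair, whose genes lie within the genes of the heart muscle myosins Myh6 and Myh7. From position 1 at the 5′ end of miR-208a, the pair differs at G10A, A16G and C18U.
miR-208a: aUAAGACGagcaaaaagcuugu (chr14:54949072-54949093, minus strand, within Myh6)
miR-208b: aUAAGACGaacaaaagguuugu (chr14:54975710-54975731, minus strand, within Myh7)

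The miR-30 members below share 1 seed, and miR-30a and miR-30e differ only at C13U.
miR-30a: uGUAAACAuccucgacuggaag (chr1:23272274-23272295, plus strand)
miR-30c: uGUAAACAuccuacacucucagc (chr1:23291714-23291736, plus strand, and chr4:120769584-120769606, minus strand, within Nfyc)
miR-30e: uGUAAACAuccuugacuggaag (chr4:120772660-120772681, minus strand, within Nfyc)

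The pair from red blood cell precursors comes from neighbouring genes and has unlike seeds.
miR-144: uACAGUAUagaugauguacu (chr11:78073047-78073066, plus strand)
miR-451: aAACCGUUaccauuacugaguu (chr11:78073186-78073207, plus strand)

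Of the Hox miRNAs, miR-10a and miR-10b differ at U12A and miR-196a and miR-196b at A12C, outside the seed, while their genes lie in different Hox clusters.
miR-10a: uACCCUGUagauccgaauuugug (chr11:96317186-96317208, plus strand, within Hoxb3)
miR-10b: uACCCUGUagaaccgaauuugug (chr2:74726074-74726096, plus strand, within Hoxd3 and Hoxd4)
miR-196a: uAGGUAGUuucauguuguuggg (chr11:96265187-96265208, plus strand, nearest coding gene Hoxb9, and chr15:102973365-102973386, plus strand, nearest coding gene Hoxc10)
miR-196b: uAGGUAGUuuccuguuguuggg (chr6:52230129-52230150, minus strand, nearest coding gene Hoxa10)

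Finally, miR-204 and miR-205 were among the miRNAs called higher in NMG, and they share no seed.
miR-204: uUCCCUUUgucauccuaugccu (chr19:22750610-22750631, plus strand, within Trpm3)
miR-205: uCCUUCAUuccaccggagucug (chr1:193507503-193507524, minus strand)

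The deposited values are barcode counts from which the average negative control of the same lane was taken off, with no adjustment for how much RNA a lane held. The mouse miRNA values summed to 589588 and 2334955 in lung and to 559660 and 525225 in NMG, so the lung of mouse 16 stood apart with about 4 times the signal of the others. A miRNA counted as detected where its value was over a limit of 2 SD above the average negative control (14.8 and 19.5 counts in lung, 8.58 and 10.4 in NMG). By this limit 256 and 368 of the 566 mouse probes were detected in lung and 357 and 343 in NMG, 447 in at least 1 lane and 225 in all 4. The lung lane of mouse 15 therefore had the highest limit after scaling, 8.23 against 3.20 to 3.85 in the others, and low miRNAs are less certain there. Values given from here on are scaled by trimmed mean of M-values (TMM), and each log2 difference is lung minus NMG on log2(scaled value + 1). In a check of the labels, the airway miRNA miR-449a was above the limit in both lungs and in neither gland. The same values of miR-449a are given as a result below, so the check and that result are not independent. The epithelial miR-205 and miR-148a were above it in all 4 lanes and do not check the mammary label. Values of different probes were not set against each other, since probes differ in efficiency.

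Of 550 probes tested with limma on all samples, with the mouse as a block, 49 were called higher in lung (8.91%) and 6 were called higher in NMG (1.09%) at a Benjamini-Hochberg adjusted p under 0.05. An unadjusted p under 0.05 was reached by 146 probes. Of the 49, 27 were detected in both lung lanes, 13 in 1 and 9 in neither, and those 9 rest on values within the background. Of the 6, 5 were detected in both NMG lanes, and miR-487b only in NMG of mouse 16. The median difference of all tested probes was 0.28, which is the level against which the families below are read. Lung was higher in both mice for 36.0% of the tested probes and NMG for 24.9%, and among the probes detected in all 4 lanes these shares were 56.4% and 21.8%. Both lungs lay above both glands for 30.9% of the tested probes and both glands above both lungs for 19.3%, or 49.8% and 18.7% of those detected in all 4 lanes. The split of calls moved with the scaling, to 33 higher in lung and 14 higher in NMG by the miRNA total, 31 and 9 by the 100 most abundant miRNAs, 42 and 11 by TMM over the 4 normal lanes alone, and 30 and 18 by the total without miR-720. Of the 27 called miRNAs followed across settings, 11 kept their call under all 7 other scalings. The called probes miR-449c, miR-487b and miR-540-5p, also named here, were not followed.

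These calls borrowed their spread from the other tissue and culture samples, so a small adjusted p does not by itself show that the 2 mice were alike. With the 4 normal samples fitted alone and the mouse as a block, limma called 0 probes in either direction, and 116 had an unadjusted p under 0.05. With 1 mouse left out, each tissue keeps 1 sample and the spread comes from the other groups alone. A call kept in such a fit therefore does not show that the difference repeats between mice. A call lost in it does not show that the difference rested on 1 mouse, since fewer samples are left. With 2 pairs, an exact sign-flip test of a single miRNA cannot give a p under 0.50. The plot of both tissues shows where the called miRNAs lie.

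**Figure D1:**
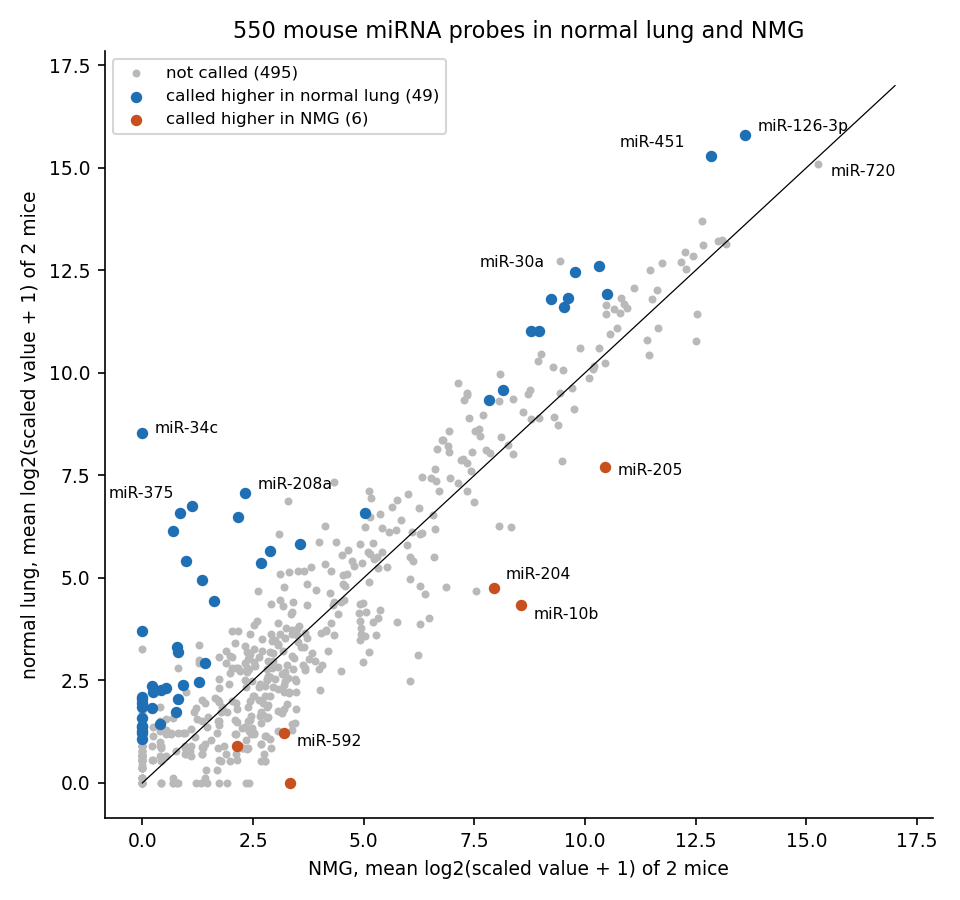
Mean log2(scaled value + 1) over 2 mice in NMG (horizontal axis) and normal lung (vertical axis) for 550 mouse probes. The line marks equal values; 49 probes in blue were called higher in lung and 6 in orange higher in NMG, and many of the blue probes lie near 0 in NMG.

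miRNAs of multiciliated cells made up 3 of the 10 largest called differences towards lung. miR-34b and miR-34c come from 1 transcript, and miR-449a lies within Cdc20b, a gene of multiciliated cells. The scaled value of miR-449a was 89.7 and 54.9 in lung and 1.62 and 0 in NMG. It was thus high in both lungs and under the limit in both NMG samples, at least 15.3-fold higher in lung (log2 difference 5.46, SE 1.41, adjusted p = 0.0248, limma). For miR-34b-5p, which has the same seed, the values were 123 and 63.9 in lung against 1.62 and 6.69 in NMG (log2 difference 4.32, SE 0.97, adjusted p = 0.0114). The tissues did not overlap, and only the NMG of mouse 16 was above the limit. The other strand of the same precursor, miR-34b-3p, gave 106 and 41.9 against 8.90 and 6.32 and did not pass the test (log2 difference 2.99, SE 0.93, adjusted p = 0.0566).

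The scaled value of miR-34c was 479 and 288 in lung and 0 in both NMG samples (log2 difference 8.54, SE 2.15, adjusted p = 0.0237, limma). This probe's name states that it takes up a share of the strongest positive control, and that share was subtracted. The deposited values were 1896 and 2888 counts in lung and 1058 and 1078 in NMG. The subtraction removed all of the NMG signal and a part of the lung signal, so the large log2 difference rests on NMG values at 0. Against the raised detection limit of this probe, lung was at least 12.3-fold higher. Without the subtraction, the log2 difference of miR-34c was 0.78 and it was not called (adjusted p = 0.247). miR-34a, which responds to p53 in many cell types and shares the seed, gave 30.6 and 39.6 in lung and 10.5 and 10.4 in NMG, with no overlap and no call (adjusted p = 0.0636).

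Over this list, 4 of 7 tested probes were called higher in lung and 0 higher in NMG, beside 8.91% and 1.09% of all probes. The median difference was 2.99 against 0.28 over all probes. The fourth called probe, miR-449c, was above the limit only in the lung of mouse 16. The summed scaled value of the list was 828 and 493 in lung and 22.7 and 23.4 in NMG. Without mouse 15 the calls of miR-34b-5p (adjusted p = 0.181), miR-34c (0.189) and miR-449a (0.113) were lost, and without mouse 16 those of miR-34c (0.188) and miR-449a (0.223). All 3 calls were also lost under scaling by the miRNA total (adjusted p = 0.0631, 0.0803 and 0.117 for miR-34b-5p, miR-34c and miR-449a), by the 100 most abundant miRNAs (0.0846, 0.178 and 0.336) and by the total without miR-720 (0.0648, 0.0816 and 0.126).

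miR-375 gave 142 and 79.5 in lung and 0 and 3.72 in NMG, and both NMG values were under the limit. It is known for endocrine cells such as those of the pancreatic islet, and neuroendocrine cells also occur in airway epithelium. Lung was at least 23.0-fold higher (log2 difference 5.62, SE 0.50, adjusted p = 7.64e-06, limma), and the call held under all 7 scalings. The log2 difference was 7.15 in mouse 15 and 4.09 in mouse 16. The SE of 0.50 draws on all 24 samples. In the 4 normal samples alone, limma did not call miR-375 (adjusted p = 0.148 with the mouse as a block and 0.0629 without). miR-375 was the only called probe of 8 in the list of endocrine and neural miRNAs, beside 8.91% of all probes called higher in lung. The median of that list was -0.47. The neuronal miR-124 was above the limit only in NMG of mouse 16, at 5.95.

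The heart muscle miRNAs miR-208a and miR-208b were higher in both lungs. miR-208a gave 167 and 107 in lung and 5.26 and 2.97 in NMG, a log2 difference of 4.75 (SE 0.34, adjusted p = 1.02e-06, limma) that was 4.74 in mouse 15 and 4.77 in mouse 16. miR-208b gave 95.2 and 94.8 in lung and 0 and 2.23 in NMG, at least 20.6-fold higher in lung (adjusted p = 0.0248). Both lungs were far above both mammary samples for each miRNA. The log2 difference of miR-208b was 6.59 in mouse 15 and 4.89 in mouse 16. Its call was lost under scaling by the miRNA total (adjusted p = 0.0892, limma), the 100 most abundant (0.195) and the total without miR-720 (0.0959). The call of miR-208a held under these scalings. The third miRNA carried by a myosin gene, miR-499, was under the limit in all 4 lanes.

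Of the other striated muscle miRNAs detected, miR-1, miR-133a and miR-206 followed the single sample instead of the tissue. miR-133b was not called, and neither tissue was the higher one in both mice. miR-1, the main miRNA of skeletal and heart muscle, gave 427 and 1256 in lung and 819 and 30.8 in NMG. Its co-transcribed partner miR-133a gave 89.7 and 167 in lung and 165 and 6.69 in NMG. The skeletal muscle miRNA miR-206 gave 7.24 and 149 in lung and 16.2 and 4.83 in NMG. For all 3, the NMG of mouse 15 exceeded its lung, and the lung of mouse 16 far exceeded its NMG. The log2 difference of miR-1 was -0.94 within mouse 15 and 5.30 within mouse 16. It was -0.87 and 4.45 for miR-133a and -1.06 and 4.69 for miR-206, and none of the 3 was called (adjusted p = 0.302, 0.316 and 0.257, limma). Over the 7 probes of the list, 2 were called higher in lung, beside 8.91% of all probes. The summed value was 795 and 1798 in lung and 1014 and 50.9 in NMG. The median difference was -0.87 in mouse 15 and 4.69 in mouse 16. Whether muscle cells lay in the captured areas was not tested.

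**Figure D2:**
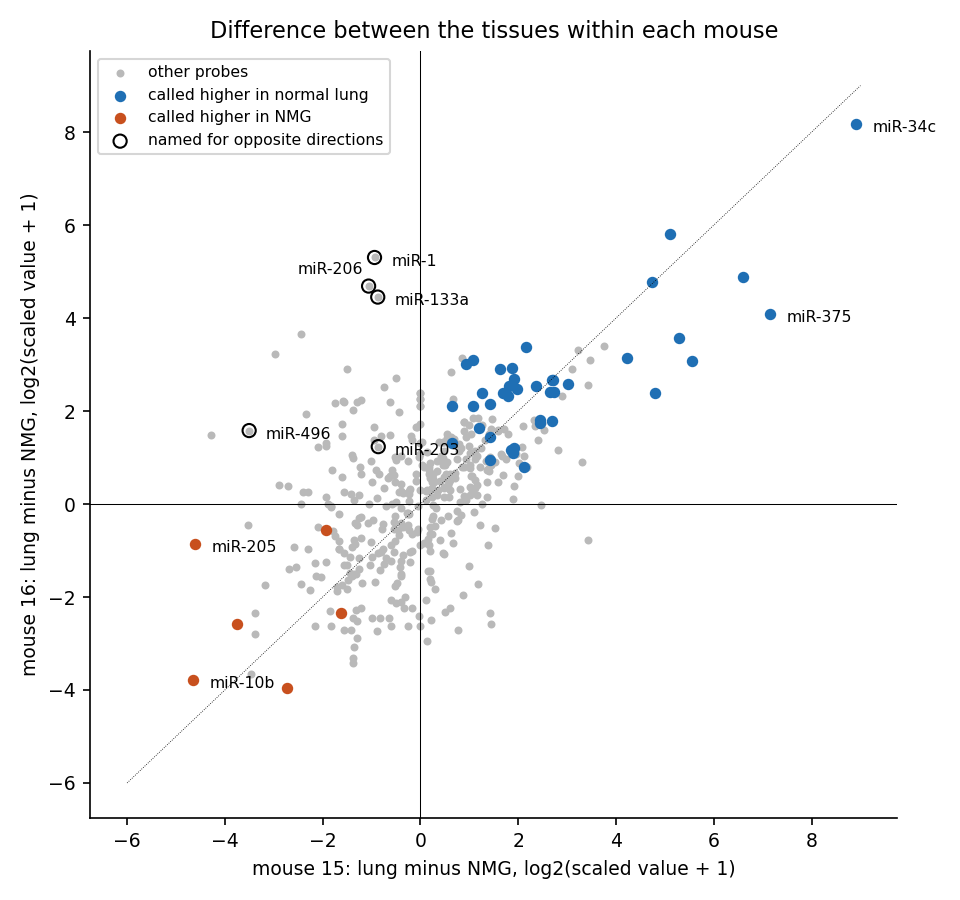
Difference between lung and NMG on log2(scaled value + 1) within mouse 15 (horizontal axis) and mouse 16 (vertical axis) for the 447 probes above the limit in at least 1 lane. Called probes lie at the upper right or lower left, while miR-1, miR-133a and miR-206 lie near -1 in mouse 15 and above 4 in mouse 16.

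Both strands of the endothelial miR-126 and 1 of 3 miRNAs of red blood cells were called higher in lung, beside 8.91% of all probes. miR-126-3p, the main miRNA of endothelium and made from an intron of Egfl7, gave 55389 and 57887 in lung and 15861 and 9890 in NMG. It took 16.9% and 15.1% of the mouse miRNA signal in lung and 7.02% and 5.08% in NMG. Both lungs lay above both glands (log2 difference 2.18, SE 0.48, adjusted p = 0.00992, limma). The other strand, miR-126-5p, gave 5540 and 7025 against 1467 and 1090, with nearly the same log2 difference (2.30, SE 0.51, adjusted p = 0.00998). Both strands lost their call without mouse 16 (adjusted p = 0.162 and 0.158), and miR-126-3p also under the 100 most abundant miRNAs (0.0676) and the total without miR-720 (0.0595).

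miR-451, which is processed by Argonaute 2 without Dicer and accumulates in red blood cells, gave 37657 and 42750 in lung and 7339 and 7408 in NMG. The 2 samples of each tissue were close, and lung was 5.44-fold higher (log2 difference 2.44, SE 0.42, adjusted p = 0.00141, limma). The call held under all 7 scalings, and the log2 difference was 2.36 in mouse 15 and 2.53 in mouse 16. miR-144, from the same primary transcript, gave 5420 and 8388 in lung and 487 and 974 in NMG. miR-486, also of red blood cells, gave 1084 and 682 in lung and 145 and 134 in NMG. Neither overlapped between the tissues, and neither passed the test (log2 differences 3.29 and 2.62, adjusted p = 0.0558 and 0.0636). Thus 1 of 3 erythroid probes was called, beside 8.91% of all probes, with a median difference of 2.62. All 3 were higher in lung in both mice, as were 36.0% of all probes and 56.4% of those detected in all 4 lanes. The tissues did not overlap towards lung for 49.8% of the latter. The part of blood in the captured areas in the other differences was not tested.

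miR-30 is abundant in lung and its 5 members share a seed. miR-30a gave 5857 and 5475 in lung and 895 and 857 in NMG (log2 difference 2.69, SE 0.42, adjusted p = 0.000685, limma). miR-30d gave 3866 and 3271 against 580 and 617 (2.57, SE 0.37, adjusted p = 0.000425), and miR-30b gave 3317 and 2963 against 611 and 891 (2.09, SE 0.37, adjusted p = 0.00204). Each was several-fold higher in both lungs, with the same direction in both mice. Under the scalings the calls of miR-30a and miR-30d held, while that of miR-30b was lost by the miRNA total (adjusted p = 0.0671), the 100 most abundant (0.103) and the total without miR-720 (0.0789). miR-30c gave 3262 and 3225 against 1699 and 1179, and miR-30e gave 380 and 387 against 109 and 135. Their tissues did not overlap either, but they were not called (adjusted p = 0.175 and 0.259). Both lungs lay above both glands for 49.8% of the probes detected in all 4 lanes, and 8.91% of all probes were called higher in lung. Probes of members as alike as miR-30a and miR-30e may share signal.

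Other families had 1 or 2 members called higher in lung, beside 8.91% of all probes. Of the miR-181 list 2 of 3 were called, miR-181a with 3844 and 3460 in lung against 974 and 626 in NMG (log2 difference 2.22, SE 0.41, adjusted p = 0.00271, limma) and miR-181c with 110 and 81.5 against 28.7 and 34.9 (1.55, adjusted p = 0.0295). miR-181 tunes signaling in lymphocytes and in endothelium. Of the miR-23, miR-24 and miR-27 list 1 of 5 was called, miR-23b with 2305 and 1885 against 354 and 548 (2.24, SE 0.52, adjusted p = 0.0142). All 5 were higher in lung in both mice, as were 36.0% of all probes and 56.4% of those detected in all 4 lanes. miR-24 of the same list gave 725 and 569 against 124 and 189 and was not called (adjusted p = 0.0636).

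miR-146a, a brake on NF-kB signaling, was the called probe of the 7 of the immune cell list, with 1985 and 2176 in lung and 571 and 435 in NMG (log2 difference 2.06, SE 0.58, adjusted p = 0.041, limma). The median of that list was -0.09, and it changed sign under 3 scalings. Of the defining leukocyte miRNAs, miR-142-3p gave 2587 and 4096 in lung and 2729 and 1295 in NMG. The lymphocyte miRNA miR-150 gave 1109 and 1056 against 1992 and 678, so that both overlapped between the tissues. The myeloid miR-223 gave 468 and 498 in lung and 768 and 511 in NMG, slightly higher in both glands and uncalled (adjusted p = 0.804). miR-99b was the only probe called of its list of 7 (777 and 529 against 209 and 247, adjusted p = 0.0298). In the miR-29 list, whose members repress collagen messages, miR-29c was called of 3 (4019 and 3741 against 1499 and 1370, adjusted p = 0.0496). The calls of these lists stand beside 8.91% of all probes called higher in lung.

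Several of these calls turned on the scaling. Some were also lost with 1 mouse left out, where fewer samples remain. Within mouse 15 and mouse 16, the log2 difference was 1.98 and 2.46 for miR-181a, 1.90 and 1.20 for miR-181c, and 2.70 and 1.78 for miR-23b. It was 1.8 and 2.32 for miR-146a, 1.89 and 1.10 for miR-99b, and 1.42 and 1.45 for miR-29c. By the miRNA total, limma gave adjusted p = 0.408 for miR-181c, 0.113 for miR-146a, 0.213 for miR-99b and 0.382 for miR-29c. These 4 were also uncalled by the 100 most abundant miRNAs, by TMM over the 4 normal lanes and by the total without miR-720. miR-181a was lost by the 100 most abundant (adjusted p = 0.0676) and miR-23b by the total without miR-720 (adjusted p = 0.0505).

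The oncogenic miR-17-92 cluster and its paralogs supply miR-92a, and miR-92b is a separate gene with the same seed. miR-92b gave 17.8 and 7.88 in lung and 0 in both NMG samples, at least 2.78-fold higher in lung (adjusted p = 3.90e-05, limma). miR-92a gave 30.1 and 14.0 in lung and 2.83 and 1.49 in NMG, at least 4.63-fold higher (adjusted p = 0.00962). Both were under the limit in both glands and within a few-fold of it in the lungs, and the call of miR-92a was lost without mouse 15 (adjusted p = 0.0511) and by the miRNA total (0.0703), the 100 most abundant (0.122) and the total without miR-720 (0.0835). These were the 2 probes called of 12 in the list, beside 8.91% of all probes called higher in lung. The median of the list was 0.81. The tissues overlapped for the probe shared by miR-17 and miR-106a, with 681 and 764 in lung and 787 and 611 in NMG.

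miR-489 and miR-466j were also among the 10 largest called differences towards lung. miR-489, which is known from quiescent muscle stem cells, gave 37.9 and 46.0 in lung and 0 and 2.97 in NMG, at least 9.17-fold higher in lung (adjusted p = 0.00312, limma). miR-466j, of a repeated miRNA cluster, gave 26.7 and 33.2 in lung and 0 and 5.57 in NMG (log2 difference 3.59, adjusted p = 5.30e-05). Both lungs exceeded both glands for each. The log2 difference within mouse 15 and mouse 16 was 5.28 and 3.56 for miR-489, and 4.79 and 2.38 for miR-466j. In the 4 normal samples alone with the mouse as a block, neither was called (adjusted p = 0.139 and 0.189, limma).

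miR-222, which with its neighbour miR-221 acts in endothelium and targets the cell cycle inhibitor Cdkn1b, gave 147 and 174 in lung and 16.2 and 22.3 in NMG. The tissues were far apart, and the test was not passed (log2 difference 3.01, SE 0.99, adjusted p = 0.0636, limma). miR-221 gave 97.5 and 113 in lung and 43.3 and 54.6 in NMG (adjusted p = 0.524).

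**Figure D3:**
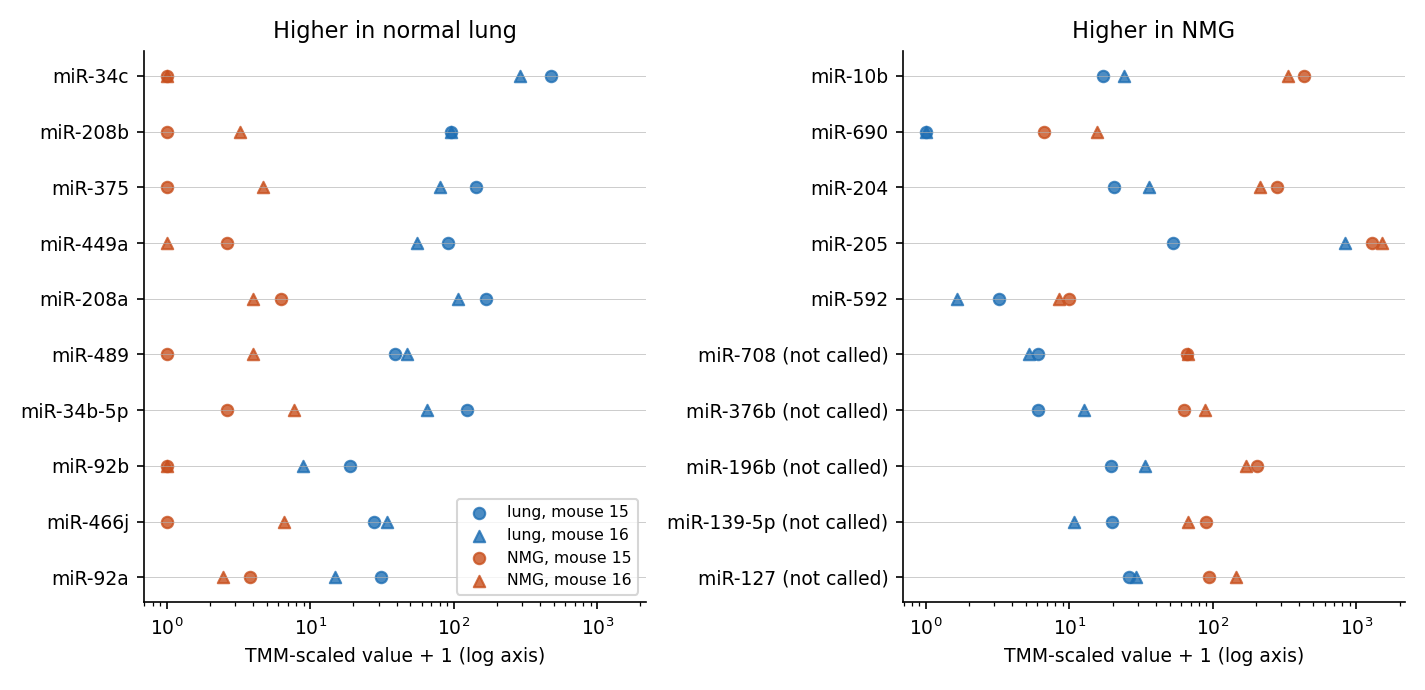
TMM-scaled value + 1 (log axis) in each of the 4 samples for the 10 miRNAs with the largest called difference towards lung (left) and for the 5 called and 5 uncalled miRNAs chosen for NMG (right). Blue is lung and orange NMG, circles are mouse 15 and triangles mouse 16. Rows were chosen for a large difference of 1 direction in both mice, and the tissues do not overlap in any of them. Of all tested probes, 30.9% do not overlap towards lung and 19.3% towards NMG. The lung of mouse 16 lies close to NMG for miR-205.

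Towards NMG, the largest called difference was that of miR-10b. Its gene lies in the Hoxd cluster, and Hox genes mark the position of a cell along the body axis. miR-10b gave 16.2 and 23.2 in lung and 429 and 331 in NMG, 18.6-fold higher in NMG (log2 difference -4.21, SE 0.93, adjusted p = 0.0104, limma). miR-10a, from the Hoxb cluster and different from it at 1 base, went the other way, with 610 and 652 in lung and 327 and 217 in NMG (log2 difference 1.24, SE 0.49, adjusted p = 0.125), which was not called. miR-196a gave 64.6 and 85.6 in lung and 356 and 284 in NMG. Its paralog miR-196b gave 18.4 and 32.7 in lung and 202 and 170 in NMG. Both were higher in both glands without passing the test (log2 differences -2.08 and -2.87, adjusted p = 0.118 and 0.0566). The miR-615 strands were under the limit in all 4 lanes. Of 6 Hox probes, 1 was called higher in NMG and 0 higher in lung, beside 1.09% and 8.91% of all probes. The median difference was -1.14. The call of miR-10b was lost without mouse 15 (adjusted p = 0.142) and without mouse 16 (0.0849), although both mice had the same direction (-4.65 and -3.78). Whether the probes of these near-identical miRNAs share signal was not tested.

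miR-205, a miRNA of basal and myoepithelial cells that restrains Zeb1 and Zeb2, gave 51.8 and 831 in lung and 1292 and 1506 in NMG. Both glands were high, the lung of mouse 15 was low and the lung of mouse 16 lay between. miR-205 was called higher in NMG (log2 difference -2.74, SE 0.73, adjusted p = 0.0298, limma), with -4.61 in mouse 15 and -0.86 in mouse 16. Without mouse 15 the adjusted p was 0.585, and the call was also lost by the mRNA controls (0.209), the positive controls (0.0976) and no scaling (0.102). miR-203, of differentiating squamous epithelium, was also high in the lung of mouse 16 alone, with 98.6 and 689 in lung and 180 and 292 in NMG, and its direction turned between the mice (-0.86 and 1.23). Its log2 difference of 0.19 was not called and changed sign under 4 scalings. The lung of mouse 16 was thus the higher lung for miR-205, miR-203, miR-1, miR-133a and miR-206.

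miR-204, which is encoded in Trpm3 and is known from pigmented and secretory epithelia and mesenchyme, gave 19.5 and 35.0 in lung and 277 and 214 in NMG. Both glands exceeded both lungs (log2 difference -3.17, SE 0.84, adjusted p = 0.0284, limma). The call was lost without mouse 15 (adjusted p = 0.242) and without mouse 16 (0.0906), and by the mRNA controls (0.123) and the positive controls (0.0502). miR-592 gave 2.23 and 0.657 in lung and 8.90 and 7.43 in NMG, and miR-690 gave 0 in both lungs and 5.66 and 14.5 in NMG. Both were under the limit in lung and not far above it in NMG, so that NMG was at least 1.47-fold higher for miR-592 (adjusted p = 2.01e-05) and at least 1.63-fold higher for miR-690 (adjusted p = 0.0129). miR-690 was not called without mouse 16 (adjusted p = 0.10), by the miRNA total (0.0671), the 100 most abundant (0.166) or the total without miR-720 (0.0602).

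The 5 miRNAs that followed in NMG did not pass the test. miR-708, encoded in Tenm4, gave 5.01 and 4.27 in lung and 65.1 and 65.8 in NMG, close within each tissue and 11.8-fold apart (log2 difference -3.56, SE 1.16, adjusted p = 0.0636, limma). miR-376b gave 5.01 and 11.7 in lung and 61.9 and 86.9 in NMG, and miR-127 gave 25.1 and 28.1 in lung and 93.5 and 143 in NMG (adjusted p = 0.0703 and 0.188). These 2 belong to the imprinted Dlk1-Dio3 domain. miR-139-5p gave 18.9 and 9.85 in lung and 88.2 and 66.1 in NMG (adjusted p = 0.143), and miR-196b is described above. Their direction was fixed by how they were chosen.

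The Dlk1-Dio3 domain on chromosome 12 encodes a large cluster of miRNAs that are made from the maternal chromosome and are known from embryonic, muscle and mesenchymal cells. Of 56 tested probes of this domain, 1 was called higher in NMG (miR-487b) and 1 higher in lung (miR-540-5p). Over all probes these shares were 1.09% and 8.91%. miR-540-5p was under the limit in all 4 lanes. The median difference was -0.95 against 0.28 over all probes, -1.31 in mouse 15 and -0.86 in mouse 16. NMG was higher in both mice for 31 of the 56 probes (55.4%) and lung for 4 (7.14%), beside 24.9% and 36.0% over all probes. The summed scaled value was 865 and 1049 in lung and 1851 and 1736 in NMG. As an example, miR-136 gave 63.5 and 90.2 in lung and 263 and 269 in NMG (adjusted p = 0.0993, limma). For miR-376c the values were 8.91 and 25.5 against 88.6 and 88.1 (adjusted p = 0.188). For miR-382 they were 11.7 and 17.1 against 55.0 and 51.6 (adjusted p = 0.116). All 3 were higher in both glands and uncalled. miR-496 was an exception, with 2.23 and 73.1 in lung and 35.6 and 23.8 in NMG. The median changed sign, to 0.15, only under scaling by the mRNA controls.

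The mesenchymal miR-199a and miR-214 probes were uncalled. miR-199a-3p gave 2580 and 2915 in lung and 6544 and 5323 in NMG. Its other strand, miR-199a-5p, gave 1410 and 1346 against 2379 and 3288. miR-214 gave 18.4 and 12.5 against 36.0 and 42.0. All 3 can be made from an antisense transcript of Dnm3, and all were higher in NMG in both mice, as were 24.9% of all probes (median difference -1.10), and 0 of 3 were called (adjusted p = 0.216, 0.143 and 0.271, limma). The sign of all 3 turned under scaling by the mRNA controls. miR-378, encoded in Ppargc1b and known from fat, gave 163 and 320 in lung and 804 and 625 in NMG (log2 difference -1.63, SE 0.51, adjusted p = 0.0566). Of the 6 adipose probes 0 were called, lung was higher in both mice for 3 and NMG for 2, and the median of 0.24 changed sign under 4 scalings. miR-148a gave 1636 and 1904 in lung and 7255 and 4600 in NMG (log2 difference -1.71, SE 1.37, adjusted p = 0.557). It is abundant in milk and in mammary epithelium.

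The epithelial miR-200 family, which restrains Zeb1 and Zeb2, was expressed in both tissues. miR-200a gave 980 and 1034 in lung and 184 and 399 in NMG, and miR-141, with the same seed, gave 474 in both lungs and 121 and 223 in NMG. miR-200b gave 1295 and 1209 in lung and 384 and 616 in NMG. miR-200c gave 950 and 535 against 367 and 478, and miR-429 gave 708 and 839 against 344 and 549. All 5 were higher in lung in both mice with no overlap, beside 56.4% (higher in both mice) and 49.8% (no overlap) of the probes detected in all 4 lanes, and 0 of 5 were called (adjusted p from 0.394 to 0.805, limma). The median difference was 1.36, between 0.47 and 2.73 over the scalings. miR-200c and miR-429 turned sign under the total without miR-720.

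Many widely expressed families were near the median of all probes. Of 9 let-7 probes 0 were called, with a median of 0.41, and this changed sign under 3 scalings. Of 6 probes of the miR-15 and miR-16 seed 0 were called (median 0.51, with a changed sign under 3 scalings). The smooth muscle pair miR-143 and miR-145 gave differences of 0.67 and 0.68 and neither was called. Their sign also turned under 3 scalings. The liver miRNA miR-122 gave 10.6 and 12.5 in lung and 7.69 and 5.57 in NMG, near the limit in all 4 lanes. The plot of the families sets these side by side.

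**Figure D4:**
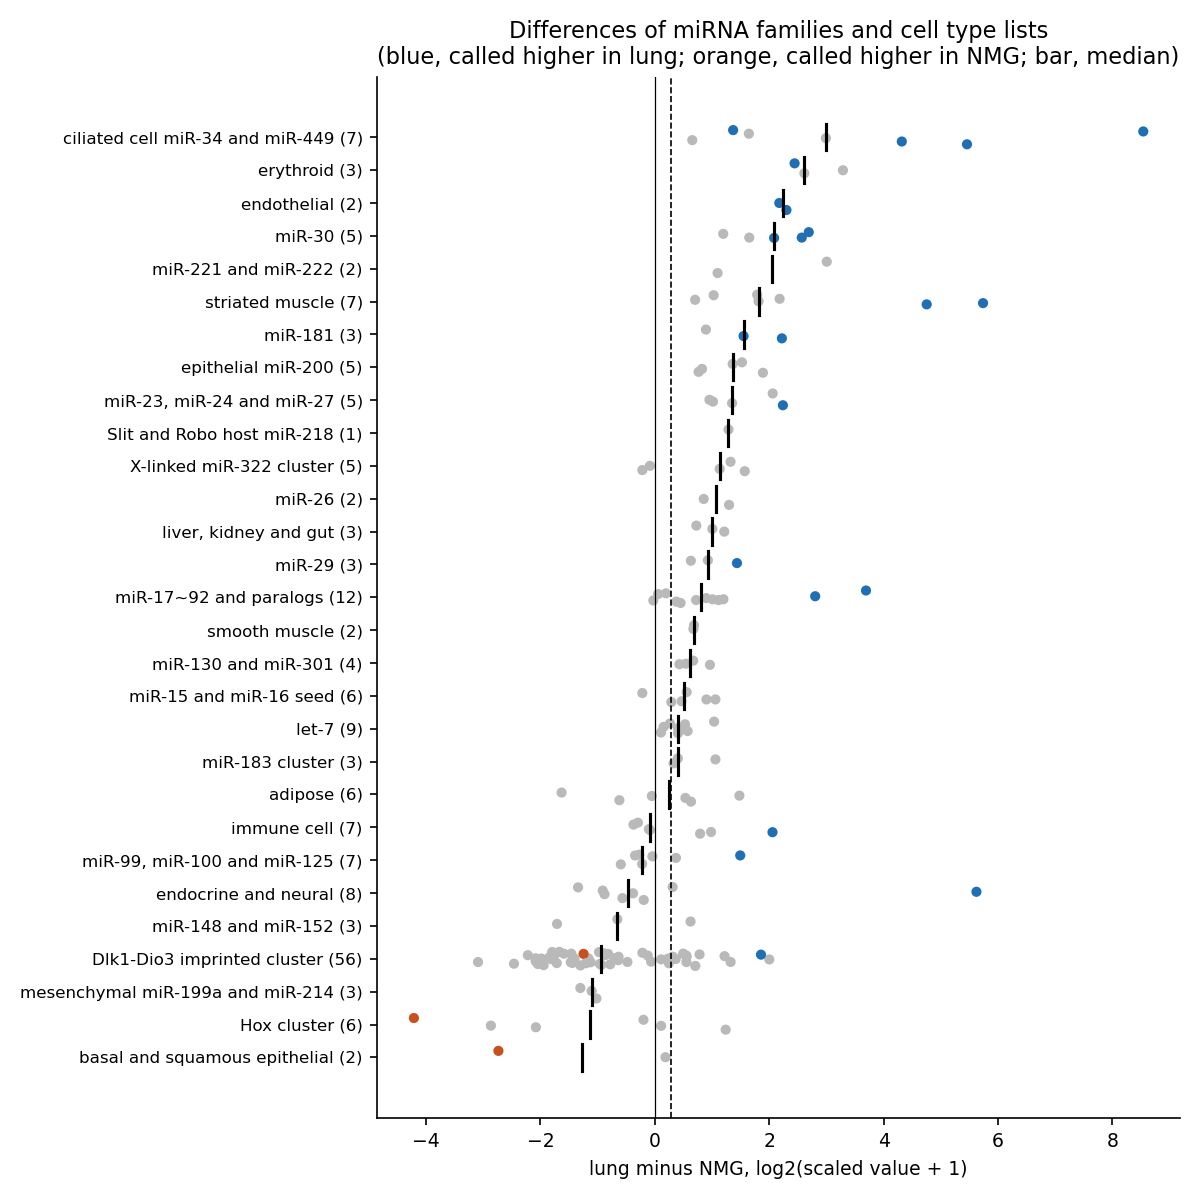
Log2 difference (lung minus NMG, horizontal axis) of each tested probe in 29 families and cell type lists, with the number of probes in parentheses and the median as a bar. The dashed line is the median of all 550 probes, 0.28; the miR-34 and miR-449, erythroid, endothelial and miR-30 lists have the highest medians, and the basal, Hox, miR-199a and Dlk1-Dio3 lists the lowest.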

How the data were processed

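The nCounter mouse miRNA assay counts colour barcodes, 1 for each target molecule, without amplification. In the table deposited by the authors, each value is a count from which the average of that lane's 6 negative controls was taken off, and can lie below 0; these values were not scaled between lanes. The labels name Partek, with no role for these values. For this work, the share of positive control A stated in 4 probe names (let-7a, miR-34c, miR-155 and miR-543) was subtracted, and 2 SD of its counting error were added to the detection limit of those probes. Values were floored at 0 and scaled by TMM over 24 lanes, trimming 30% of the log ratios and 5% of the levels. Probes above 0 in at least 1 sample (550 of 566) were fitted as log2(value + 1) with limma 3.58.1 (trend, R 4.3.3) over all 24 samples, with group and animal as terms, and adjusted by Benjamini-Hochberg. The values are not counts, so no count model was used.

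Where both samples of 1 tissue were under the limit, a fold is a lower bound, with the limit of each lane in place of the value and both tissues averaged on the log2 scale. The 10 miRNAs named in each direction are the largest called differences among those detected in both samples of the higher tissue and of 1 direction in both mice, filled up with uncalled miRNAs by the smaller of the differences in the 2 mice. Members of the lists detected in a sample were named too. The members, lists and tests were chosen with earlier results of these data known. The pairing comes from the numbers in the sample descriptions: over 447 probes, the deviations of the 2 mice correlated at r = 0.0434 between tissues and their tissue differences at r = 0.552. Across these probes, the 2 lungs correlated at 0.935, the 2 glands at 0.954 and the tissues of a mouse at 0.883 and 0.882. No more than 4.24% of deposited values were identical within a tissue. With 2 animals, precision is low throughout, and each p-value sets the difference in these 2 mice against a spread estimated over all 24 samples. The fitting script was also run on simulated lanes, which held no difference between animals and so do not test the pairing. Python 3.11.15 was used with pandas 2.3.3 and matplotlib.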

Additional observations from a re-analysis of the deposited data

Results flagged for a closer look

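Of the 33 probes for viral miRNAs, which the comparison did not use, 3 exceeded the detection limit in the lung of mouse 15, 15 in the lung of mouse 16, 15 in the NMG of mouse 15 and 13 in the NMG of mouse 16. The highest values were 21, 88, 34 and 28 counts, and of the 3 probes for miRNAs of other species 0, 2, 1 and 0 exceeded it, with highest values of 9, 48, 13 and 8. These were flagged as signal outside the main measurement. The lung of mouse 16, whose summed signal was the highest, also had the highest value of both kinds. Their source was not tested, and no infection can be read from them.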

How the results depend on the processing

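The counts of calls depended on the scaling, the background and the samples. Lung-higher and NMG-higher calls were 33 and 14 by the miRNA total, 31 and 9 by the 100 most abundant miRNAs, 179 and 6 by the 4 mRNA controls, 91 and 7 by the positive controls, 94 and 11 without scaling, 42 and 11 by TMM over the 4 normal lanes and 30 and 18 by the total without miR-720, a setting chosen after the data were seen. The median of all probes moved from 0.28 by -0.53, -0.46, 1.18, 0.39, 0.38, -0.27 and -0.60 in these settings. A pseudocount of 10 gave 83 and 19, the higher background 69 and 46, and a filter on values of at least 20 gave 25 and 4 of 286 probes. For the paired design, the replicate block gave 0 and 0 with the 4 normal samples alone (116 at an unadjusted p under 0.05) and 57 and 10 with the 20 tissue samples; with no replicate block, limma gave 53 and 8 over all 24 samples and 24 and 7 in the 4 alone. Leaving out a mouse or a lane gave 39 to 104 lung-higher and 2 to 28 NMG-higher calls, with the lone sample assumed to vary like the other groups. The causes of these shifts were not tested, apart from the smaller number of probes under the filter.

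Fits without a mouse, or without a lane and the block, were also run for the 27 called miRNAs followed across settings. Such a fit leaves 1 sample in at least 1 tissue. A call kept there rests on spread borrowed from other groups and does not show agreement between mice. A call lost there does not show that it rested on 1 mouse or lane. Under the scalings, in the order above, 16, 14, 25, 25, 26, 23 and 14 of the 27 kept their call. None of the 27 kept its call with the 4 normal samples alone and the block. Over 58 named miRNAs and 21 alternatives, 18 of 1217 values changed sign. Under the mRNA controls these were miR-199a-3p (0.26), miR-199a-5p (0.35) and miR-214 (0.0068). Leaving out 1 mouse took miR-1 from -0.94 (without mouse 16) to 5.30 (without mouse 15), miR-133a from -0.87 to 4.45 and miR-206 from -1.06 to 4.69. Leaving out mouse 16 also turned miR-203 (-0.86). The others were, without NMG 2 and the block miR-1 (-0.16) and miR-133a (-0.43); without lung 2 and the block miR-206 (-0.28) and miR-203 (-1.21, against 1.58 without lung 1); and without NMG 1 and the block miR-203 (-0.16). miR-203 was also below 0 by the miRNA total (-0.56), the 100 most abundant (-0.53), TMM over the 4 lanes (-0.18) and the total without miR-720 (-0.69), where miR-200c (-0.12) and miR-429 (-0.063) were as well.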

Other observations

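Among 225 probes above the limit in all 4 lanes, lung was higher in both mice for 127 and NMG for 49. Conversely, 32 probes were above the limit in both glands and in neither lung, and 11 in both lungs and in neither gland. Of the 32, miR-690 and miR-592 were called higher in NMG. The higher scaled limit in the lung of mouse 15 (8.23) was not separated from these counts. miR-720, now regarded as a fragment of a transfer RNA, took 5.90% and 16.5% of the mouse miRNA signal in lung and 22.7% and 15.5% in NMG. Its order turned between the mice, with scaled values of 19333 and 63075 in lung and 51323 and 30178 in NMG.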
